A study of Mus musculus with 19 samples.

Results

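Integrin subunits were followed in type 1 conventional dendritic cells (DC1), the subset that presents antigen to CD8 T cells. The 10 genes were the alpha subunits Itga1, Itga4, Itga6, Itgal, Itgam and Itgax and the beta subunits Itgb1, Itgb2, Itgb7 and Itgb8. They were taken from the arrays as genes with a probe set that the platform annotation ties to a single symbol, the brightest being used where a gene has several. Each of the 10 had 1 such probe set in both tables, among 22180 genes in the spleen table and 19938 in the lymph node table. Levels are log2 intensities, and because probes differ in how brightly they report, the groups are ranked within a gene and genes are not ranked against each other.

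The mice had a C57Bl/6j background and were wild type (WT) or lacked Batf3 (Batf3-/-), a transcription factor gene on which DC1 development depends. DC1 from spleens of females made up 3 groups: WT without reporter signal (WT Irf8VENUS-, 2 arrays), WT with it (WT Irf8VENUS+, 3 arrays) and Batf3-/- with it (Batf3-/- Irf8VENUS+, 3 arrays), where Irf8VENUS is a fluorescent reporter of the transcription factor gene Irf8. Both Batf3 genotypes in the comparisons of Batf3 loss carried the reporter. Spleen cells were gated as CD11c+ MHCII+ and on CD24 and XCR1, except replicate 3 of both Irf8VENUS+ groups, which the titles give as CD24 alone. CD172a marks cDC2, the second conventional subset; the protocol for spleen names CD172a+ and the one for lymph nodes CD172-. Skin-draining lymph nodes (SDLN; inguinal, cervical and brachial, sex not given) gave Irf8VENUS+ cells gated as CD11c+ MHCII+ CD24+ CD172-, which were split into resident DC1 with intermediate MHC class II and high CD11c and migratory DC1 with high MHC class II and intermediate CD11c. There were 3 arrays of resident WT, 2 of migratory WT, 3 of resident Batf3-/- and 3 of migratory Batf3-/- DC1. The labels do not state whether replicate arrays stem from different mice. Each p-value is set only against how far arrays lie apart within groups, pooled over all groups of a table, and that spread may be technical.

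Integrins are cell surface receptors made of an alpha and a beta chain, and the pair decides what the receptor binds. Those with the Itgb2 chain (CD18) occur on leukocytes and bind ICAMs and complement fragments, those with Itgb1 bind matrix proteins such as collagen and laminin or, with Itga4, fibronectin and VCAM-1, and those with Itgb7 bind MAdCAM-1 or E-cadherin. The Itgb8 chain pairs with the alpha v chain and releases active TGF-beta from its latent form. Dendritic cells of the skin leave the tissue through lymphatic vessels to reach the node, and leukocyte integrins are known to be largely dispensable for their movement through tissue.

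The protein that BATF3 forms with JUN factors binds AP-1 type sites and, together with IRF8, composite sites that include an interferon-response element. RefSeq promoters (build GRCm38.p6; 250 bases before to 50 after the annotated start) were given for 7 of the 10 genes, and not for Itga6, Itgal and Itgb2. They were searched on both strands for TGANTCA, a spelling of the AP-1 site, and for GAAA followed after any 2 bases by GAAA, a spelling of the interferon-stimulated response element. The first was found in 1 of the 7, in Itgax, beginning 56 bases before the start, and in 7.81% of all 32851 promoters of that length. The second was found in 0 of the 7 and in 3.44% of all promoters. The 250 bases before the start are shown 5′ to 3′ on the gene's strand for 3 subunits that the results below turn on: Itgax at chr7:128129300-128129549 (plus strand), with the AP-1 type match in capitals, Itga1 at chr13:115101965-115102214 (minus strand), of the 10 the subunit with the largest difference between genotypes, and Itgb8 at chr12:119238277-119238526 (minus strand), the subunit that was higher in migratory cells of both genotypes; the latter 2 hold neither motif.
Itgax: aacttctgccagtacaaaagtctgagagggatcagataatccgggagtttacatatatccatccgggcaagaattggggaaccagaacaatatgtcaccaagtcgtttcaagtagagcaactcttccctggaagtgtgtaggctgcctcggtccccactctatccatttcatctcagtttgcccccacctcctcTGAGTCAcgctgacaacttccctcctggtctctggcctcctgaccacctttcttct
Itga1: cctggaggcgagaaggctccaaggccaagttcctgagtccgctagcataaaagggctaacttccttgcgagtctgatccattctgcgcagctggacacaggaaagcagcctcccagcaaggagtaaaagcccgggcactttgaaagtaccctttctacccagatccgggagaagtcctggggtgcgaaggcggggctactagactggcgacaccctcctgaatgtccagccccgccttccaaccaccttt
Itgb8: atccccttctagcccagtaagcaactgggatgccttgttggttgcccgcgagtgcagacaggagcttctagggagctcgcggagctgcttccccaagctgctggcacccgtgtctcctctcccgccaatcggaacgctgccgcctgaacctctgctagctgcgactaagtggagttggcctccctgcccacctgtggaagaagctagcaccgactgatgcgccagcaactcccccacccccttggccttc
A match describes letters in a window and is not a site shown to be bound. The motifs were searched singly and composite sites were not searched for, so the counts do not speak to them. Itgax lies next to Itgam on chromosome 7 in the RefSeq order of coding genes.

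The libraries carried their labels for Batf3 and, between migratory and resident cells, for Ccr7. Batf3 was lower in Batf3-/- than in WT cells in spleen, resident and migratory DC1 (log2 differences of -3.69, -2.64 and -3.17), and Ccr7, the chemokine receptor that guides dendritic cells to the node, was higher in migratory than in resident cells of both genotypes (3.34 in WT and 2.39 in Batf3-/-). Ccr7 was also higher in Batf3-/- than in WT cells among resident DC1 (1.62, adjusted p = 0.0183, limma). In spleen it was higher by 2.06 and not called (adjusted p = 0.0700, limma). Of 14 migratory DC markers tested, 3 were called higher and 0 lower with Batf3 loss in resident cells, where 1.84% of all genes were called. Their part in the integrin results was not tested. Xcr1, the chemokine receptor of DC1, was lower in migratory cells of both genotypes (-3.20 and -3.67), and Irf8 was lower with migration in WT (-1.88) and in Batf3-/- cells (-0.51). The mean level of the cDC1 markers was 9.99 to 10.2 on resident WT arrays but 7.21 to 7.64 on migratory WT arrays, and 9.10 to 9.17 and 6.91 to 6.99 in Batf3-/- cells. Markers of B cells, which share lymph nodes with DC1, moved with migration: 7 of 7 tested were higher in migratory WT cells and 1 of 7 in migratory Batf3-/- cells. Their mean level ran from 4.46 to 4.85 on resident and 5.87 to 6.42 on migratory WT arrays, against 4.76 to 5.04 and 4.95 to 5.90 in Batf3-/- cells, and 4 of the 7 markers were under the table's median in resident WT and 0 of 7 in migratory WT cells. Of 8 cDC2 markers tested, 6 were lower in migratory cells of each genotype and 1 was higher in Batf3-/- cells; their mean level ran from 6.27 to 7.41 on resident and 5.24 to 5.48 on migratory WT arrays, and from 6.44 to 6.95 and 4.93 to 5.32 in Batf3-/- cells. Of 6 macrophage and monocyte markers, 3 were lower in WT (5.63 to 5.95 resident, 4.92 to 5.22 migratory), and 2 were higher and 2 lower in Batf3-/- cells (5.59 to 5.88, 5.14 to 5.35). Of 7 T cell markers, 2 were higher in WT (5.43 to 5.53, 5.76 to 6.52) and 0 were called in Batf3-/- cells by limma, where 0 had an unadjusted p below 0.05 (5.60 to 6.23, 5.55 to 6.12). Of all genes tested, 33.2% were called lower and 15.95% higher with migration in WT, and 22.6% and 14.1% in Batf3-/- cells. The part of any of these 4 marker lists in the integrin results was not tested. Resident WT replicate 1 had a higher level of Sirpa, which encodes CD172a, than the other 2 (7.82 against 5.31 and 5.67); without it the WT migration comparison below had 6 called subunits instead of 7, Itga6 being lost. The spread of values within an array (SD) was 1.96 to 2.16 on migratory and 2.16 to 2.23 on resident arrays, so it moved with the sort. Among migratory arrays it was 1.96 and 2.03 in WT and 2.16, 2.15 and 2.07 in Batf3-/- cells. There it also moved with the genotype. In bulk samples, fewer cells of a type and less RNA per cell cannot be told apart.

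A gene was tested where at least 2 arrays of its table reached the table's median log2 intensity, 5.04 for spleen and 4.82 for SDLN. That held for 9 of the 10 subunits in each table. Itgb8 reached it on 0 of the 8 spleen arrays, and Itgam on 1 of the 11 SDLN arrays. Itgb8 passed in SDLN through 4 migratory arrays alone, so it could pass only where it was high. A gene is called where its limma p-value, adjusted by Benjamini-Hochberg over the whole table, is below 0.05, and differences are log2 values with their standard error (SE).

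In WT lymph nodes, the leukocyte integrin chains were much lower in migratory than in resident DC1. Itgb2, its partners Itgal (the LFA-1 alpha chain) and Itgax (CD11c), and Itgb7 all fell, Itga1 and Itga6 fell by less, and Itgb8 rose. Of the 9 subunits tested, 6 were called lower and 1 higher, where 33.2% of all 11931 genes tested were called lower and 15.95% higher, 49.2% in all. The median difference over all genes was -0.16 as deposited, -0.32 after median centring and -0.07 after a further quantile normalization, and the called split moved with it: 32.4% of called genes were higher as deposited, 21.8% after median centring, 41.1% after quantile normalization and 58.1% with the spread of values within an array as a term. The integrin calls kept their directions under both scalings. The migratory and resident arrays did not overlap for 8 of the 9 subunits, as for 70.3% of all genes.

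Itgb2, the common chain of LFA-1, Mac-1 and CD11c/CD18, stood at 9.33, 9.29 and 9.36 on the resident WT arrays and at 5.35 and 6.00 on the migratory ones. The resident arrays lay within a narrow band and far above both migratory arrays. The difference was -3.65 ± 0.24 (SE; adjusted p = 4.97e-07, limma), 12.5-fold. Itgal, which pairs with Itgb2 to bind ICAM-1, stood at 8.19, 8.69 and 8.72 in resident and at 4.86 and 5.18 in migratory cells. Its groups were as widely apart, and both migratory arrays were near the table's median of 4.82. The difference was -3.51 ± 0.29 (adjusted p = 2.68e-06, limma). Itgax stood at 9.94, 9.81 and 10.1 in resident and at 7.60 and 8.16 in migratory cells, a difference of -2.07 ± 0.37 (adjusted p = 6.89e-04, limma). Itgax encodes CD11c, on whose surface level the cells were split, with the resident gate set higher, so the direction of this RNA difference is that of the gate, and Itgb2 encodes the chain that carries CD11c to the surface. Itgam, the Mac-1 alpha chain, stayed untested at 4.49, 4.47 and 4.67 in resident and 4.63 and 4.29 in migratory cells, all under the table's median and overlapping.

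Itgb7, the beta chain of the gut-homing receptor with Itga4 and of the E-cadherin receptor with Itgae, stood at 7.18, 7.56 and 7.74 in resident WT cells and at 4.73 and 5.11 in migratory ones. No array of one group reached the other, and the difference was -2.57 ± 0.24 (adjusted p = 6.25e-06, limma). Its partner Itga4 was nearly level, at 10.8, 10.6 and 10.4 in resident and 10.4 and 10.3 in migratory cells, with a difference of -0.24 ± 0.24 (adjusted p = 0.421, limma) that was not called. The collagen receptor chain Itga1 was at 5.58, 6.17 and 5.50 in resident and 4.35 and 4.61 in migratory cells. The migratory arrays were the low ones and lay under the table's median, and the difference was -1.27 ± 0.31 (adjusted p = 0.00555, limma; -1.14, adjusted p = 0.0515, without migratory WT replicate 1). The laminin receptor chain Itga6 was at 5.30, 5.09 and 5.19 against 4.73 and 4.84, a small difference of -0.41 ± 0.15 (adjusted p = 0.0358, limma). That call was lost without any 1 of resident WT replicates 1 and 3 and migratory WT replicates 1 and 2 (-0.36, -0.41, -0.36 and -0.46).

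Itgb8, the TGF-beta activating chain, was the only subunit of the 9 called higher in migratory WT cells. It stood at 4.17, 4.29 and 4.17 in resident cells, under the table's median, and at 6.00 and 6.54 in migratory cells. Both migratory arrays exceeded every resident array, with a difference of 2.06 ± 0.30 (adjusted p = 1.54e-04, limma). Itgb8 could be tested only because migratory cells were high. Its p-value is therefore not independent of the filter, and the difference is given as a description. The common chain Itgb1 overlapped between the groups, at 8.29, 8.08 and 7.91 in resident and 8.47 and 8.08 in migratory cells, and its difference of 0.18 ± 0.20 was not called (adjusted p = 0.487, limma). With the spread of values within an array as a term, which goes with the sort, 2 of the 9 subunits were called, Itgb2 (-2.21) and Itgal (-2.16). Itgax then turned to 0.24 (adjusted p = 0.848), and Itgb7, Itga1, Itga6 and Itgb8 lost their calls at -1.23, -0.60, -0.45 and 2.49, the last 2 with values no smaller than before (adjusted p = 0.0979, 0.690, 0.496 and 0.0623, limma).

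**Figure D1:**
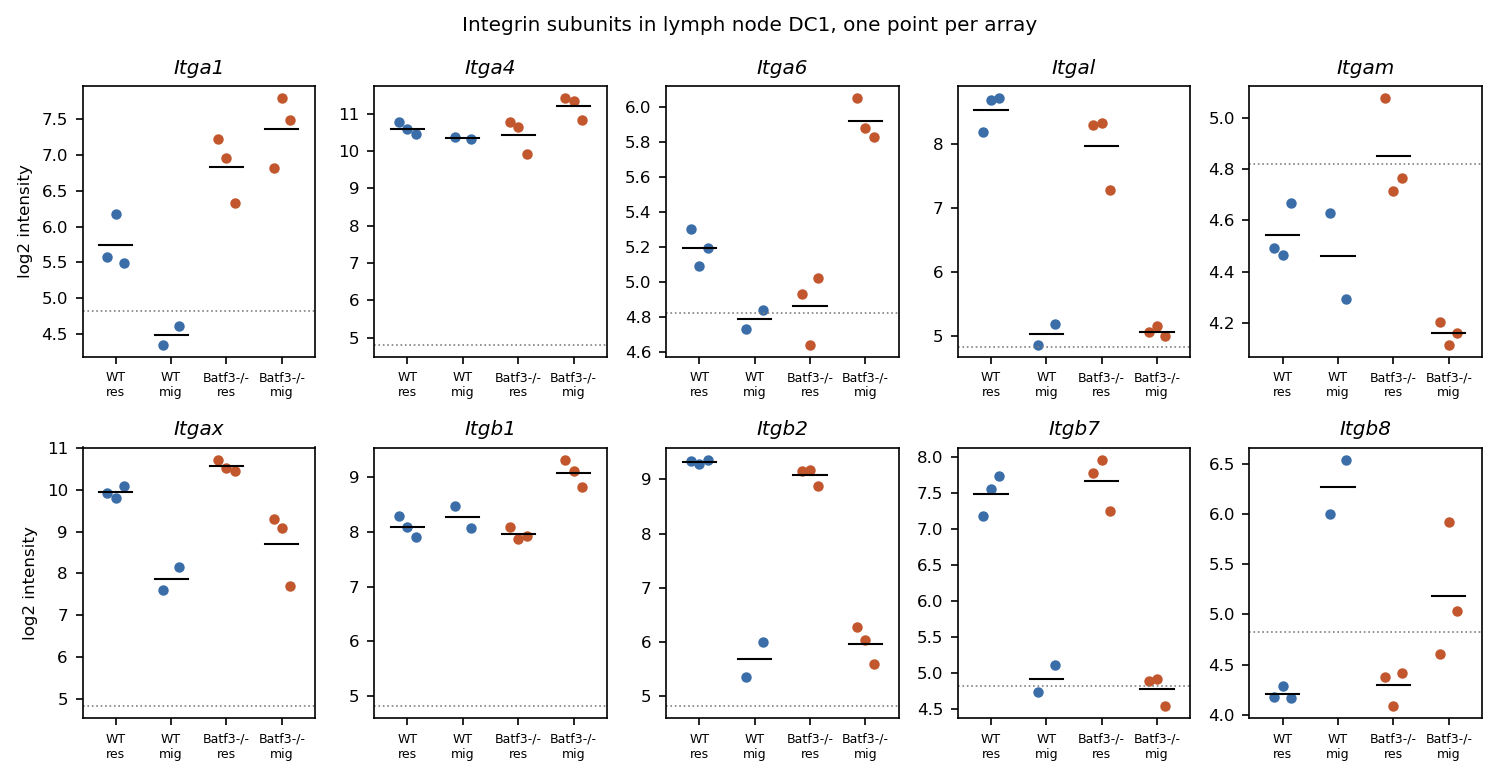
Log2 intensity of the 10 integrin subunits on the 11 lymph node arrays, 1 panel per gene with its own vertical scale; points are arrays (blue WT, orange Batf3-/-; res, resident; mig, migratory), black bars are group means and the dotted line is the table's median of 4.82. Itgb2, Itgal and Itgb7 are low on all 5 migratory arrays, and Itga1 is lowest in migratory WT and highest in migratory Batf3-/- cells.

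In Batf3-/- lymph nodes, the same leukocyte chains fell with migration, while the Itgb1 chain and 2 alpha chains rose. Of the 9 subunits, 4 were called lower and 4 higher, where 22.6% of all genes were called lower and 14.1% higher, 36.6% in all. The arrays did not overlap for 8 of the 9, as for 46.8% of all genes. The resident and migratory Batf3-/- arrays are other arrays than the WT ones, so the 2 migration comparisons have no sample in common. Replicate number as a block changed no subunit's call in this comparison.

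Itgb2 stood at 9.16, 9.17 and 8.88 in resident and 6.27, 6.03 and 5.59 in migratory Batf3-/- cells, and fell by 3.10 on the log2 scale (SE 0.21; adjusted p = 4.27e-07, limma). Itgal was at 8.30, 8.34 and 7.29 in resident and 5.06, 5.14 and 4.99 in migratory cells, a difference of -2.91 ± 0.26 (adjusted p = 3.15e-06, limma). Itgb7 was at 7.78, 7.96 and 7.25 against 4.89, 4.91 and 4.54, a difference of -2.88 ± 0.21 (adjusted p = 8.20e-07, limma). Resident replicate 3 was the lowest of its group for these 3 genes and still lay above every migratory array. Itgax was at 10.7, 10.5 and 10.5 in resident and 9.32, 9.08 and 7.70 in migratory cells, with migratory replicate 3 well under the other 2. Its difference of -1.88 ± 0.33 (adjusted p = 7.08e-04, limma) again ran in the direction of the CD11c gate. Itgam was at 5.08, 4.71 and 4.77 in resident and 4.20, 4.12 and 4.16 in migratory cells, without overlap but almost wholly under the median. Without the filter on dim genes it was called lower, and the count was then 9.

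Itgb1 stood at 8.10, 7.87 and 7.92 in resident and at 9.31, 9.11 and 8.82 in migratory Batf3-/- cells. All migratory arrays exceeded all resident arrays, and the difference was 1.12 ± 0.18 (adjusted p = 3.89e-04, limma). Itga6, which pairs with Itgb1 or Itgb4, was at 4.93, 4.64 and 5.02 in resident and at 6.05, 5.88 and 5.83 in migratory cells. The 3 migratory arrays were the highest of the table for this gene, with a difference of 1.06 ± 0.13 (adjusted p = 5.06e-05, limma). Itga4 was at 10.8, 10.6 and 9.91 against 11.4, 11.3 and 10.8, a difference of 0.75 ± 0.21 (adjusted p = 0.0146, limma), and was not called without migratory Batf3-/- replicate 1 or 2 (0.64 and 0.68). Itgb8 was at 4.38, 4.09 and 4.41 in resident and at 4.60, 5.92 and 5.03 in migratory cells. Migratory replicate 2 was far above the other 2, and the lowest migratory array was just above the highest resident one. The difference was 0.89 ± 0.27 (adjusted p = 0.0189, limma), and it was not called without migratory Batf3-/- replicate 2 or resident Batf3-/- replicate 2 (0.52 and 0.79). Here too Itgb8 passed the filter through migratory arrays alone, and the difference is given as a description. Itga1 overlapped between resident (7.22, 6.96 and 6.33) and migratory cells (6.83, 7.80 and 7.50), and its difference of 0.54 ± 0.28 was not called (adjusted p = 0.160, limma; 0.81, adjusted p = 0.0392, without migratory Batf3-/- replicate 1).

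**Figure D2:**
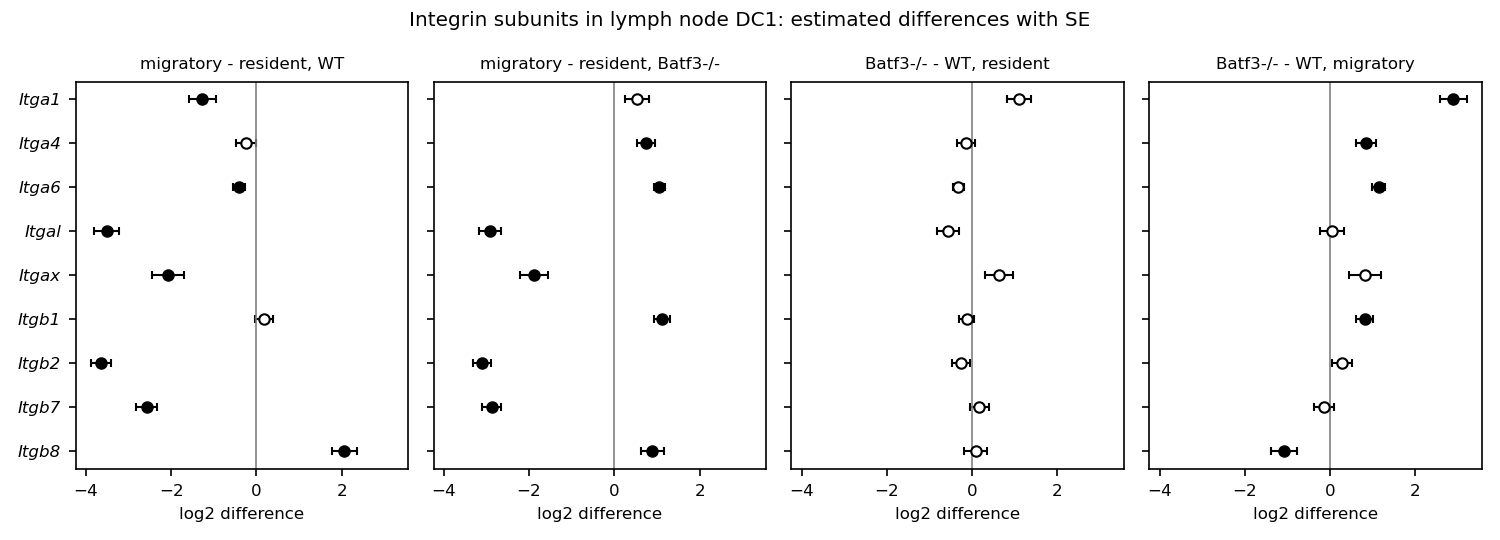
Estimated log2 differences (points) with their standard errors (bars) for the 9 subunits tested in lymph node DC1, in 4 comparisons; filled points are called at an adjusted p below 0.05 and open points are not. Itgb2, Itgal, Itgb7 and Itgax are lower in migratory cells of both genotypes, and in the comparison of migratory cells Itga1 lies farthest from 0, at 2.89.

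The migration differences of the genotypes were then set against each other in the same fit. Itga6 was the single subunit of the 9 called, where 1.24% of all genes were: it was lower in migratory WT and higher in migratory Batf3-/- cells, and the differences were 1.47 ± 0.20 apart (adjusted p = 0.00657, limma). Itga1, lower with migration in WT, missed the threshold at 1.81 ± 0.42 (adjusted p = 0.0594, limma). The other 7 were not called, with adjusted p from 0.103 for Itgb1 (0.94 ± 0.27) to 0.853 for Itgax (0.20 ± 0.50), limma. For the chains that fell in both genotypes the differences were 0.54 ± 0.32 for Itgb2, 0.60 ± 0.39 for Itgal and -0.31 ± 0.32 for Itgb7. A p-value that misses the threshold does not show that these fell equally. With the replicate number as a block, 4 were called: Itga6, Itga1 (1.91, adjusted p = 0.0262), Itga4 (1.17, adjusted p = 0.0187) and Itgb1 (1.02, adjusted p = 0.0353), limma. The count was also 4 without migratory Batf3-/- replicate 3 (Itga6, with Itga1, Itga4 and Itgb1 at 1.74, 1.17 and 1.07) and 2 without its replicate 1 (with Itga1 at 2.08) or 2 (with Itgb8 at -1.54). The table as a whole rose too: 148 genes were called as reported and 1716 without migratory Batf3-/- replicate 3. With the block, 387 genes were called higher and 156 lower.

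**Figure D3:**
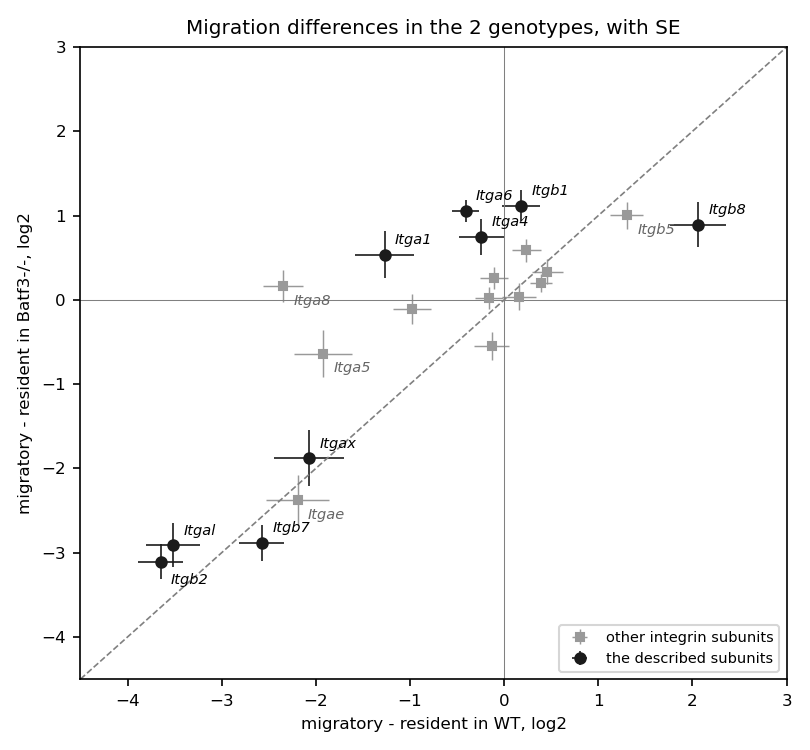
Log2 difference between migratory and resident DC1 in WT (horizontal) and Batf3-/- (vertical) lymph nodes for the 9 subunits tested (black circles) and 12 other integrin subunits (grey squares), with standard errors as bars; on the dashed line the differences are equal. Itgb2, Itgal, Itgb7 and Itgax lie at the lower left near the line, and Itga1, Itga6 and Itga8 lie above it.

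Among migratory DC1, Batf3-/- cells had far more Itga1 RNA than WT cells, more Itga6, Itgb1 and Itga4, and less Itgb8. Of the 9 subunits, 4 were called higher and 1 lower, where 7.13% of all genes were called higher and 2.28% lower, 9.41% in all; the same 5 were those whose arrays did not overlap, as for 36.6% of all genes. The median over all genes was 0.10 as deposited, 0.16 after median centring and 0.04 after quantile normalization, and 75.8% of called genes were higher as deposited, 62.4% after quantile normalization and 16.2% with the array spread as a term. Identity markers differed as well. Of 14 cDC1 markers tested, 5 were called lower and 1 higher with Batf3 loss, with Xcr1 at -1.85 and Irf8 at 1.24. Of 6 macrophage and monocyte markers 2 were called higher and 0 lower, and of 8 cDC2 markers 0 higher and 1 lower. The part of these markers in the integrin differences was not tested. Itga1 stood at 4.35 and 4.61 in WT and at 6.83, 7.80 and 7.50 in Batf3-/- migratory cells. The WT arrays were under the table's median and every Batf3-/- array was more than 2 log2 units above them, with a difference of 2.89 ± 0.31 (adjusted p = 0.00122, limma), 7.43-fold. Itga6 stood at 4.73 and 4.84 against 6.05, 5.88 and 5.83, a difference of 1.14 ± 0.15 (adjusted p = 0.00262, limma). Neither of these calls was lost on leaving out any 1 array. Both were lost with the array spread as a term (2.49, adjusted p = 0.0846, limma, for Itga1). The Itga6 call was also lost in a fit on the 2 migratory groups alone (adjusted p = 0.0718, limma).

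The other 3 calls were less firm. Itgb1 stood at 8.47 and 8.08 in WT and at 9.31, 9.11 and 8.82 in Batf3-/- migratory cells, a difference of 0.81 ± 0.20 (adjusted p = 0.0305, limma). Itga4 stood at 10.4 and 10.3 against 11.4, 11.3 and 10.8, a difference of 0.84 ± 0.24 (adjusted p = 0.0460, limma). Itgb8 ran the other way, at 6.00 and 6.54 against 4.60, 5.92 and 5.03, a difference of -1.09 ± 0.30 (adjusted p = 0.0408, limma). One Batf3-/- array of Itgb8, replicate 2, came within 0.1 log2 units of the lower WT array. B cell markers also ran lower in migratory Batf3-/- cells, with a median of -0.96 against 0.10 for all genes. Of 7 tested, 1 was called lower and 0 higher, where 2.28% of all genes were called lower. Their part in the Itgb8 difference was not tested. The Itgb1 call was lost without any 1 of migratory WT replicates 1 and 2, migratory Batf3-/- replicates 1 and 2 and resident WT replicate 2 (values from 0.61 to 1.00 over all arrays left out in turn). Itga4 lost its call without any 1 of both migratory WT arrays, all 3 resident WT arrays, migratory Batf3-/- replicates 1 and 2 and resident Batf3-/- replicate 2 (0.73 to 1.02). Itgb8 lost it without any 1 of both migratory WT arrays, all 3 resident WT arrays, migratory Batf3-/- replicate 1 and resident Batf3-/- replicates 1 and 2 (-1.45 to -0.79). Leaving out 1 array at a time gave 2 to 6 called subunits, the 6 without migratory Batf3-/- replicate 3, when Itgax was called as well (1.32). Without that replicate 3560 genes were called over the whole table, against 1123 with all arrays. With the array spread as a term none of the 3 was called, and Itga4 stood at 0.06 (adjusted p = 0.954, limma), Itgb1 at 0.70 and Itgb8 at -1.35. The array spread differed between the genotypes in migratory cells, so that term and Batf3 loss cannot be fully told apart. A fit on the 2 migratory groups alone called 1, Itga1, and 7 genes over the whole table.

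The leukocyte chains were not called between the genotypes in migratory cells. Itgb2 differed by 0.29 ± 0.24, Itgal by 0.04 ± 0.29 and Itgb7 by -0.14 ± 0.24, each with overlapping arrays (adjusted p = 0.439, 0.932 and 0.735, limma). Itgax was higher by 0.82 ± 0.37 and not called (adjusted p = 0.158, limma).

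Among resident lymph node DC1, 0 of the 9 subunits were called between the genotypes, where 1.84% of all genes were; 2 had an unadjusted p below 0.05, Itga1 and Itga6. Itga1 stood at 5.58, 6.17 and 5.50 in WT and at 7.22, 6.96 and 6.33 in Batf3-/- cells. All Batf3-/- arrays were higher, and the difference of 1.09 ± 0.28 did not pass (adjusted p = 0.0892, limma). It passed without resident Batf3-/- replicate 3 (1.34, adjusted p = 0.0379). Itga6 differed by -0.33 ± 0.13, Itgal by -0.56 ± 0.26 and Itgax by 0.63 ± 0.33 (adjusted p = 0.392, 0.519 and 0.636, limma). The arrays did not overlap for Itga1, Itga6, Itgax and Itgb2, 4 of the 9, as for 19.8% of all genes. Itgb2 differed by -0.26 ± 0.21. Itgal overlapped, and so did the remaining 4, Itga4, Itgb1, Itgb7 and Itgb8, with differences between -0.15 and 0.17.

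In spleen DC1, loss of Batf3 gave 0 called subunits of 9, where 0.738% of all 12875 genes were called; 4 had an unadjusted p below 0.05, Itga1, Itga6, Itgal and Itgax. Itga1 stood at 5.88, 5.42 and 6.43 in WT Irf8VENUS+ and at 6.61, 6.80 and 6.86 in Batf3-/- cells. Itgax stood at 9.61, 9.58 and 9.40 against 10.3, 10.2 and 9.88, and Itgal at 8.59, 8.91 and 8.998 against 8.05, 7.97 and 8.19. The arrays of the genotypes did not overlap for these 3 or for Itgam (5.04, 5.07 and 4.82 against 5.31, 5.14 and 5.39), 4 of the 9, as for 12.7% of all genes. The differences were 0.84 ± 0.19 for Itga1, 0.61 ± 0.12 for Itgax, -0.76 ± 0.16 for Itgal and 0.30 ± 0.14 for Itgam (adjusted p = 0.123, 0.0856, 0.102 and 0.512, limma). Among arrays gated on both CD24 and XCR1 the mean differences of Itga1, Itgax and Itgal were 1.05, 0.67 and -0.74, and between the 2 arrays sorted on CD24 alone 0.43, 0.48 and -0.81. Without WT Irf8VENUS+ replicate 1, Itgal was called lower at -0.86. The other 5 overlapped, Itga6 at 0.51 ± 0.19, Itgb1 at 0.29 ± 0.34, Itga4 at -0.29 ± 0.21, Itgb7 at -0.24 ± 0.19 and Itgb2 at -0.18 ± 0.19. Itgb8 lay between 3.61 and 4.51 on the 8 arrays, under the table's median on each.

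**Figure D4:**
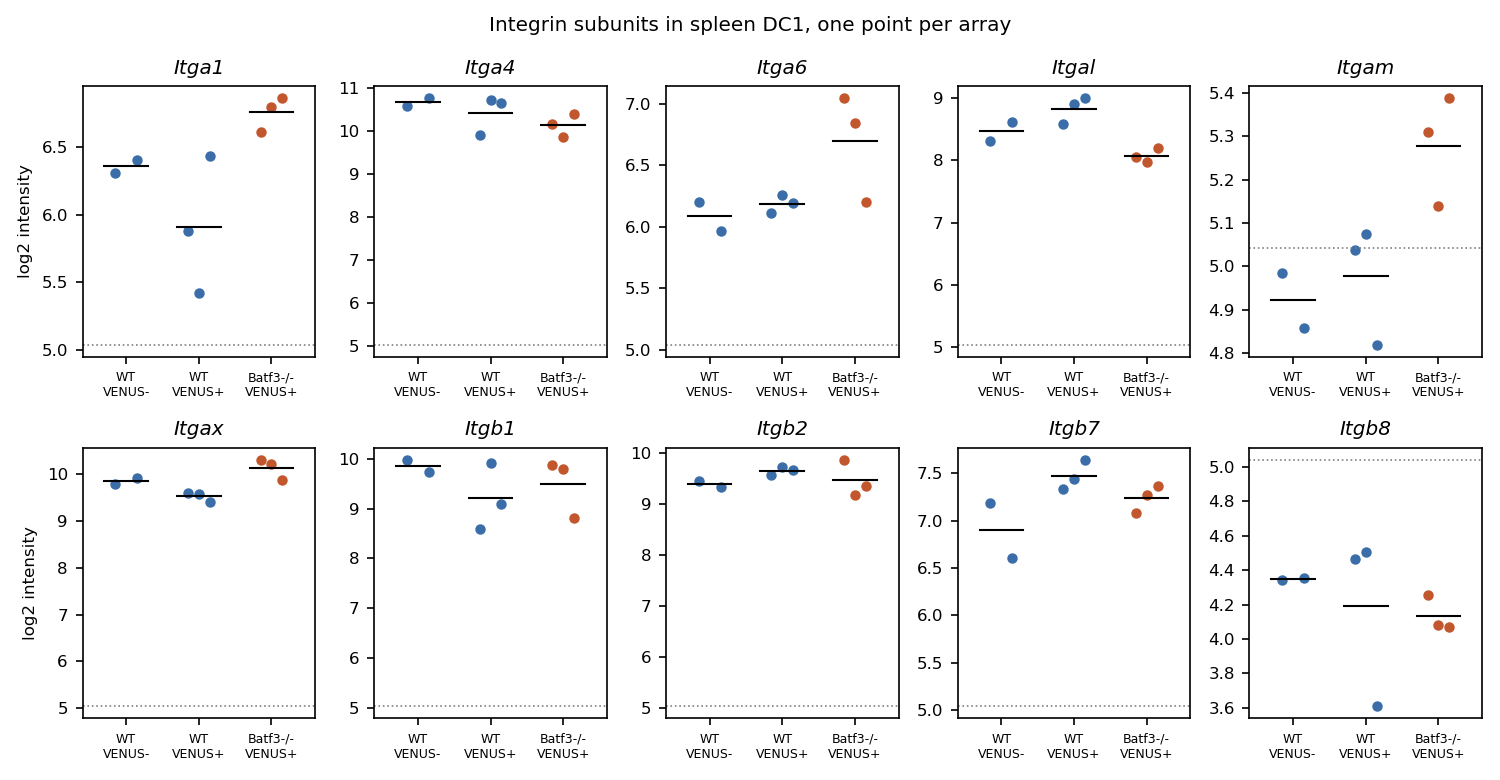
Log2 intensity of the 10 integrin subunits on the 8 spleen arrays, 1 panel per gene with its own vertical scale; points are arrays (blue WT, orange Batf3-/-; VENUS- and VENUS+, without and with the Irf8 reporter signal), black bars are group means and the dotted line is the table's median of 5.04. Itga1 and Itgax are higher and Itgal lower on all 3 Batf3-/- arrays than on the 3 WT VENUS+ arrays.

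Between Irf8VENUS+ and Irf8VENUS- WT spleen DC1, 0 of the 9 subunits were called, where 0.0233% of all genes were, and 1, Itga1, had an unadjusted p below 0.05. Itga1 stood at 6.31 and 6.41 without and at 5.88, 5.42 and 6.43 with the reporter signal. The groups overlapped, since replicate 3 with the signal was the highest array, and the estimated difference of -0.60 ± 0.23 was not called (adjusted p = 0.587, limma). Itgax, Itgb2 and Itgb7 did not overlap between the groups, 3 of the 9, as for 24.9% of all genes. Their estimated differences were -0.23 ± 0.14, 0.28 ± 0.23 and 0.50 ± 0.22 (adjusted p = 0.746, 0.807 and 0.629, limma).

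Ordered by mean level within each gene, migratory WT cells were lowest of the 4 lymph node groups for Itga1, Itga4, Itga6, Itgal, Itgax and Itgb2 and highest for Itgb8. Migratory Batf3-/- cells were highest for Itga1, Itga4, Itga6 and Itgb1 and lowest for Itgam and Itgb7. Neighbours in this order overlapped for every gene at 1 step or more: for Itga1 the resident and migratory Batf3-/- cells, for Itgb8 the resident cells of the genotypes, for Itgb2 and Itgax the migratory cells of the genotypes, and for Itgal and Itgb7 both the migratory and the resident cells. For Itga4 and Itga6 migratory WT overlapped with resident Batf3-/- cells, for Itga4 and Itgb1 the resident cells of the genotypes overlapped, and for Itgb1 and Itgam the WT groups did.

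Of 16 other integrin subunits, 12 were tested in SDLN and 8 in spleen. Itga8, which pairs with Itgb1, stood at 6.51, 5.75 and 6.56 in resident WT cells and between 3.20 and 3.96 on the other 8 SDLN arrays, all under the table's median. It passed the filter in SDLN only through the 3 resident WT arrays, so its differences from that group had to appear and are given as a description: -2.95 with Batf3 loss in resident cells and -2.35 with migration in WT. In spleen Itga8 ran from 7.08 to 7.92 in WT Irf8VENUS+ and from 4.07 to 4.57 in Batf3-/- cells, the latter under that table's median, a difference of -3.30; there too it passed through WT arrays alone. With migration in WT, Itgae (-2.19; the partner of Itgb7 in the E-cadherin receptor), Itga5 (-1.92; the fibronectin receptor) and Itgav (-0.98; the partner of Itgb8) were also called lower, and Itgb5 (1.30), Itgb4 (0.46) and Itga7 (0.39) higher. In Batf3-/- cells Itgae (-2.38) and Itga2b (-0.54) were lower and Itgb5 (1.00) and Itga2 (0.59) higher. That made 4 of the 12 lower and 3 higher in WT, where 33.2% of all genes were lower and 15.95% higher. In Batf3-/- cells 2 were lower and 2 higher, where 22.6% and 14.1% of all genes were. In migratory cells 0 of the 12 were called between genotypes by limma, where 9.41% of all genes were, and 4 had an unadjusted p below 0.05.

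Genes that switch integrins on or off, or join them to actin, were counted against the whole table. Of that table, 33.2% was called lower and 15.95% higher with migration in WT, and 22.6% and 14.1% in Batf3-/- cells. Of 14 activators and inhibitors tested, 6 were called lower and 0 higher in WT, led by Flna (-2.40; filamin, which binds beta tails) and Tln1 (-2.35; talin, which activates integrins), with a median of -0.39 against -0.16 for all genes. In Batf3-/- cells 7 were lower, led by Rasa3 (-2.11) and Fermt3 (-1.79; kindlin-3, the talin partner of blood cells), and 1, Dok1, was higher (2.22). Of 22 linkage and signalling genes, 13 were lower and 2 higher in WT (median -0.90), led by Parvg (-3.78) and Tns3 (-2.11) and by Src (1.503) and Tns1 (1.09). In Batf3-/- cells 9 were lower and 3 higher (median -0.19 against -0.02), led by Parvg (-4.03) and Parvb (-3.30) and by Actn1 (3.21; alpha-actinin) and Src (1.63). Of 9 ligands, 3 were called higher and 0 lower in both genotypes, with Vcam1, the ligand of the Itga4 receptors, at 1.81 in WT and 2.31 in Batf3-/- cells and F11r at 1.91 and 1.99. Each of these counts is small, and the table as a whole also had more genes called lower than higher.

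With Batf3 loss, 0.738% of all genes were called in spleen, 1.84% in resident and 9.41% in migratory cells, the last as 7.13% higher and 2.28% lower. In spleen and in resident cells 2 of the linkage genes were called, both higher in Batf3-/- cells: Parvb (1.54 and 1.52; beta-parvin, which binds ILK) and Fgr (1.54 and 1.42; a Src family kinase). In migratory cells 5 of 22 linkage genes were higher and 0 lower, led by Tns3 (1.38) and Syk (1.18). Of the 14 activators and inhibitors 2 were higher and 0 lower, Flna (1.79) and Tln1 (1.22). Of the activators and inhibitors 0 were called in spleen and resident cells by limma, and 0 had an unadjusted p below 0.05. Of the ligands 0 were called with Batf3 loss in spleen, resident or migratory cells by limma, and 0, 0 and 2 had an unadjusted p below 0.05.

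For the 6 subunits called with migration in both genotypes, the genes nearest in pattern were found by the root mean square distance of mean-centred log2 values over the 11 SDLN arrays, among 11931 genes. They were Plcb2 and Anpep for Itgb2 (distances of 0.17 and 0.20), Mycl and Ciita for Itgal (0.25 and 0.26), Kcnip3 and Nfam1 for Itgb7 (0.16 and 0.20), Ccnd1 and Cotl1 for Itgax (0.19 and 0.23), Mtmr1 and P2rx5 for Itga6 (0.19 and 0.20), and 2610528A11Rik and Fcer2a for Itgb8 (0.26 and 0.27). These points share arrays and sorts, and the distances describe likeness in these 11 arrays only.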

How the data were processed

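RNA was measured on Affymetrix arrays in 8 spleen and 11 SDLN samples of sorted DC1. The authors deposited linear intensity values for spleen and log2 intensity values for SDLN, made with RMA per the submitters' processing notes, of a version not given in the sources used. RMA evens array distributions, and neither table holds a background measure per probe, so levels near the floor cannot be told from absence; precision is limited by how many arrays there are. Log2 was taken of the spleen values, and tests were made only within a table.

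Probe set names came from the platform annotation, brought up to date by RefSeq gene identifier: 23521 of 41345 had 1 symbol in spleen (1814 several, 16010 none; 23328 matched), and 21789 of 35556 in SDLN (1621 several, 12146 none; 21698 matched). Differences were tested with limma (version 3.58.1; R 4.3.3; eBayes with trend) on 12875 and 11931 genes, all arrays of a table sharing 1 spread, with the sort gate as a term in spleen. On simulated data with 200 changed genes, Batf3 loss recovered 37% of log2 changes of 1 and 87% of 2 in spleen (12895 genes), and 72% and 99% in resident cells (11620 genes).

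In SDLN, arrays of 1 replicate number have a code in common in their titles. Deviations of same-numbered arrays correlated at 0.42, 0.21 and 0.48 between resident and migratory Batf3-/- cells, so that comparison counts as paired. Other groups did not meet 0.1 in 3 or more pairs. Migratory WT cells have 2 arrays, so comparisons with them could not meet this rule, and it cannot say whether they are paired.

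The 10 members and the gene lists were chosen with earlier results of these data known. Named besides the members were Batf3, Irf8, Xcr1 and Ccr7 as label checks, up to 2 called genes per list, direction and comparison with the largest change, every called other integrin subunit, and the 2 nearest patterns; Sirpa was named after its values were seen. Alternatives were other filters, scalings, probe set means, array weights, groups in the fit, gate, block, offset and array spread terms, and each array left out. Figures were drawn with matplotlib.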

Additional observations from a re-analysis of the deposited data

Results flagged for a closer look

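Itga6 differed between the genotypes in its change with migration. It was lower in migratory than in resident WT cells (-0.41 ± 0.15) and higher in migratory than in resident Batf3-/- cells (1.06 ± 0.13), and the term for the difference was 1.47 ± 0.20 (adjusted p = 0.00657, limma). Leaving out each array in turn gave 1.35 to 1.54, with an adjusted p of at most 0.0346 (limma). No group has more than 3 arrays, so single arrays were not tested for standing apart.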

How the results depend on the processing

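Over 63 subunit differences and 1229 alternative values, 1151 kept their direction and their side of the threshold, 51 lost a call, 26 gained one and 1 reversed: Itgax in the WT migration comparison, at 0.24 with the array spread as a term. A further 19 uncalled values changed sign without being called.

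The number of called subunits moved as follows. For Batf3 loss in spleen it was 3 with array weights, and 0 to 1 on leaving out each array. For resident cells it was 2 with array weights, 1 with only the groups compared, 1 with the replicate block and 1 with the array spread, and 0 to 1 on leaving out each array. For migratory cells it was 3 after quantile normalization, 3 after median centring, 1 with only the groups compared and 0 with the array spread, and 2 to 6 on leaving out each array. For WT migration it was 2 with the array spread, and Itga6 lost its call with a stricter filter on dim genes and with array weights. For Batf3-/- migration it ran from 6, without migratory Batf3-/- replicate 2, to 9, without the filter on dim genes. For the difference between genotypes it was 2 after quantile normalization, 4 with array weights, 4 with the replicate block and 0 with the array spread, and 1 to 4 on leaving out each array. The array spread goes with the sort and, among migratory cells, with the genotype, and the cause of the other changes was not tested.

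The replicate number as a block gave 8 subunits in each migration comparison (7 and 8 without it). Over the whole table, the counts of called genes ran over the alternatives from 24 to 262 for Batf3 loss in spleen (95 as reported), 0 to 18 for the reporter (3), 95 to 981 for resident (220) and 7 to 3560 for migratory cells (1123). They ran from 1263 to 8873 for WT migration (5870), 3445 to 5350 for Batf3-/- migration (4371) and 17 to 1716 for the difference (148). Subunits near the table's median (Itgam, Itgb8, Itga6 and Itga1 in some groups) have differences limited by signal over background.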

Other observations

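Genes of TGF-beta activation and response, the pathway on which the Itgb8 receptor acts, were called in both directions with migration, as was the whole table. Of 14 tested, 2 were called higher and 5 lower in WT cells (15.95% and 33.2% of all genes), led by Tgfb2 (0.98 ± 0.14) and Tgfbr1 (0.50 ± 0.16) and by Furin (-1.84 ± 0.31) and Tgfb1 (-1.59 ± 0.20). In Batf3-/- cells 4 were higher and 5 lower (14.1% and 22.6% of all genes), led by Smad3 (0.75) and Tgfbr1 (0.68) and by Tgfb1 (-1.89) and Tgfbr2 (-1.21). Tgfb3 was called in the difference between genotypes (1.58 ± 0.31, adjusted p = 0.0402, limma) and was higher in migratory Batf3-/- than in migratory WT cells (1.24), as was Smad2 (0.75). In spleen and resident cells 0 of 14 were called with Batf3 loss by limma, and 2 and 3 had an unadjusted p below 0.05.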
